A study of Rattus norvegicus with 4 samples.

Results

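The comparison described here sets the mammary gland of a homozygous Hirosaki hairless rat (HHR) against that of a Sprague-Dawley rat (SDR), both on day 1 of lactation. It uses 2 of the 4 arrays of the study, chosen by their titles, with 1 array in each group. The other arrays, from a heterozygous HHR on day 1 of lactation and from an SDR on day 1 of involution, set the common floor and are given beside single genes. HHR is a hairless mutant that arose in the SDR strain. The labels give no gene for the mutation, no age and no word on whether RNA of several animals was pooled. No targeted gene was therefore checked. With 1 array a group there is no error, no test and no p-value, and each difference is described by its size alone.

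The lactating gland is a secretory epithelium of luminal cells wrapped by contractile myoepithelial cells and set in fat, vessels and connective tissue. At the start of lactation the luminal cells shift their metabolism and their protein synthesis to milk, and when milk removal stops the gland regresses in a process called involution. Genes of milk, fat and sterol synthesis, involution, inflammation, stress and cell division are the usual subject of such a comparison. They were set aside here together with the markers of 12 cell types, and the genes outside those lists are described.

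A MAS5 signal is the brightness of a probe set, a group of short probes for 1 transcript, on a linear scale. Signals under 91.5 were raised to that floor, which is the 40th percentile over all probe sets of the 4 arrays. A gene counted as measured when at least 1 of the pair lay above the floor. Of 10866 measured genes 10350 were in no lactation or marker list, and 516 were. Among the 10350 genes, 367 were at least 2-fold higher in homozygous HHR than in SDR (3.55%) and 262 at least 2-fold lower (2.53%), so that 629 (6.08%) passed 2-fold. Over all measured genes the shares were 3.77% higher and 2.72% lower, 6.5% together. The 516 genes of the usual lists passed more often, with 43 higher (8.33%) and 34 lower (6.59%). Those lists were chosen with earlier results of these data known, so their larger shares may be partly built in.

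The differences of the 10350 genes had a median of 0.02 on the log2 scale and an SD of 0.54 across genes. The threshold of 2-fold falls where genes are dense. Between 0.9 and 1 on the log2 scale lay 128 genes on the higher side and 106 on the lower side, and between 1 and 1.1 lay 90 and 76. In the brightest of 4 equal bins of genes 2.09% were higher and 1.04% lower, against 4.10% and 3.98% in the dimmest bin. Of the 629 genes 82 were read at the floor on 1 side. A further probe set above the floor existed for 152 of them, and all probe sets of the gene went the same way for 106.

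**Figure D1:**
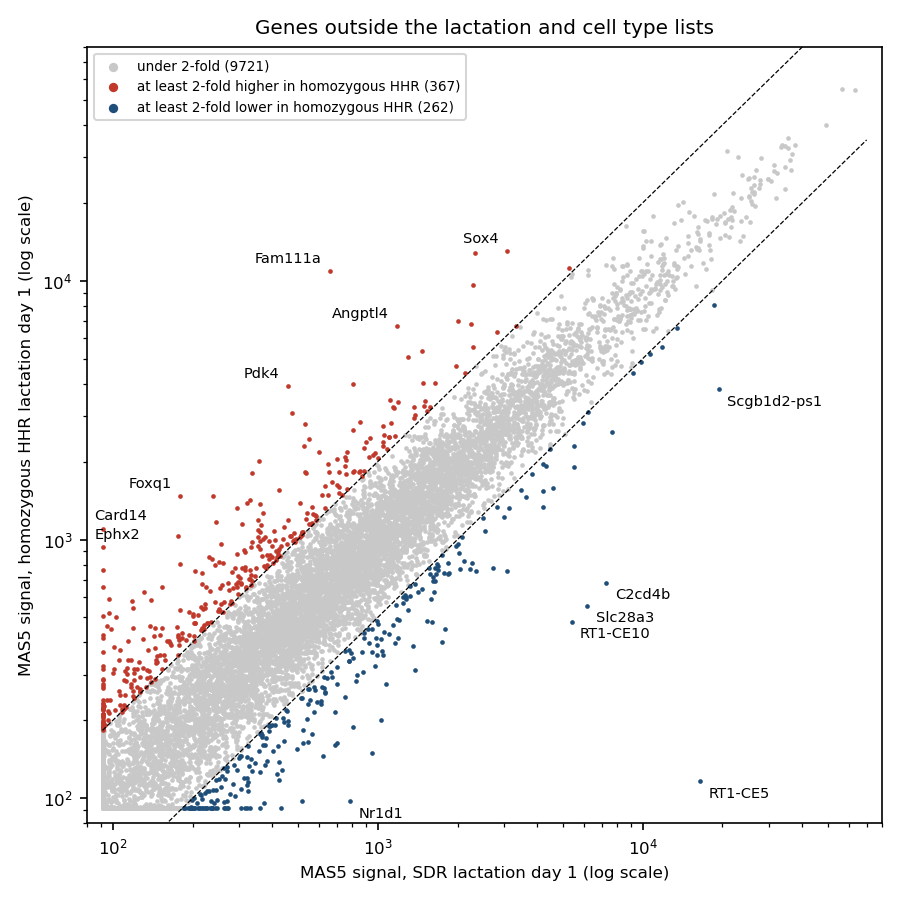
MAS5 signal of each gene outside the lactation and cell type lists in homozygous HHR (vertical) against SDR (horizontal) on lactation day 1, both on log scales with signals under 91.5 at the floor. Dashed lines mark 2-fold; 367 genes lie above the upper line or on it (red) and 262 below the lower line or on it (blue), with Fam111a and RT1-CE5 farthest out among genes above the floor in both arrays.

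Markers of the labelled tissue were present. Of 18 luminal epithelial markers on the array 17 were measured, with a summed signal of 100252 in homozygous HHR and 87039.9 in SDR and a median log2 difference of 0.01. Milk protein genes summed to 352902 in homozygous HHR and 396901 in SDR. Other cell types differed between the pair. All 15 myoepithelial markers were measured, 4 higher and 1 lower, and summed to 59354 in homozygous HHR against 36703 in SDR. The 16 endothelial markers were all measured, 0 higher and 3 lower, and summed to 12952 in homozygous HHR against 18004 in SDR. Of 18 T cell markers 17 were measured and 2 were lower, with a sum of 3963 in homozygous HHR and 5821 in SDR. Of 3 measured red cell markers 2 were lower, with sums of 7349 in homozygous HHR and 15152 in SDR. Macrophage and neutrophil markers had 2 higher and 3 lower of 18 measured, with sums of 21988 and 32482. Adipocyte markers had 1 higher and 3 lower of 17 measured, with sums of 67419 and 88801. Fibroblast and matrix markers had 0 higher and 0 lower of 23. Skeletal muscle markers were at the floor in both arrays for 15 of 18 genes and skin epidermis markers for 8 of 12. The Gapdh control's 3′ signal over its 5′ signal, a ratio that grows as RNA degrades, was 2.30 in homozygous HHR and 1.17 in SDR, and that of actin was 5.91 in homozygous HHR and 4.60 in SDR. In RNA from whole gland, fewer cells of a type and less RNA per cell cannot be told apart. What these shifts in cell markers and in RNA quality contribute to the differences below was not tested.

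Fam111a, a nuclear protease that binds the replication clamp PCNA, showed the largest increase in homozygous HHR among genes above the floor in both arrays. Its signal was 10912 in homozygous HHR, 15339 in heterozygous HHR and 133 in SDR involution, against 659 in SDR lactation, and it was 16.6-fold higher in homozygous HHR than in SDR. Both HHR arrays were high for this gene and both SDR arrays low. F5, which encodes coagulation factor V, shared that order at a lower level, with 579.8 in homozygous HHR, 772 in heterozygous HHR and 160.4 in SDR involution, against 118 in SDR lactation. C9h6orf141, an uncharacterised gene, was also above both SDR arrays in both HHR arrays on its brighter probe set. That one gave 3078 in homozygous HHR, 1649.9 in heterozygous HHR and 728 in SDR involution, against 475 in SDR lactation. Its other probe set did not keep this order. It had 258 in homozygous HHR, 162 in heterozygous HHR and 241 in SDR involution, against 177.5 in SDR lactation. Slc45a3, a solute carrier of the family of sucrose transporters, gave 2006 in homozygous HHR, 633 in heterozygous HHR and 430.1 in SDR involution, against 355 in SDR lactation. Nedd1, which brings gamma-tubulin to the centrosome, gave 449.8 in homozygous HHR, 353 in heterozygous HHR and 237 in SDR involution, against 98.8 in SDR lactation. These 4 genes differed by 4.92-fold, 6.48-fold, 5.65-fold and 4.55-fold between homozygous HHR and SDR lactation. On the probe set with these folds, the homozygous and heterozygous HHR arrays were the highest of the 4 for each gene.

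A larger set of leading genes was high in homozygous HHR and in SDR involution. Pdk4, the kinase that shuts pyruvate dehydrogenase and so spares glucose, had a signal of 3914 in homozygous HHR, 529 in heterozygous HHR and 10725 in SDR involution, against 457 in SDR lactation. Angptl4, a secreted inhibitor of lipoprotein lipase, had 6684 in homozygous HHR, 1719 in heterozygous HHR and 25142 in SDR involution, against 1186 in SDR lactation. Anxa1, an annexin that mediates anti-inflammatory actions of glucocorticoids, had 12821 in homozygous HHR, 2345 in heterozygous HHR and 33255 in SDR involution, against 2335 in SDR lactation. In all of these heterozygous HHR lay closer to SDR lactation than to homozygous HHR, and SDR involution was the highest array. The differences between homozygous HHR and SDR lactation were 8.57-fold, 5.64-fold and 5.49-fold. Wfdc2, a small secreted protein with whey acidic protein domains, gave 591 in homozygous HHR, 360.3 in heterozygous HHR and 1949 in SDR involution, against 96.8 in SDR lactation. Dmkn, which encodes the epidermal secreted protein dermokine, gave 1418 in homozygous HHR, 620 in heterozygous HHR and 9293 in SDR involution, against 330.3 in SDR lactation. Both again had their highest signal in SDR involution, with heterozygous HHR between the lactation pair. Arid5b, a DNA-binding partner of a histone demethylase, was 5.87-fold higher at 1033 in homozygous HHR against 176 in SDR, and its relative Arid5a was 2.74-fold higher at 989 in homozygous HHR against 361 in SDR.

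In other leading genes homozygous HHR stood above all the other arrays. Foxq1, a forkhead transcription factor, had 1468 in homozygous HHR, 133 in heterozygous HHR and 449 in SDR involution, against 179 in SDR lactation, a difference of 8.19-fold. Arrdc4, an arrestin-domain protein that limits glucose uptake, had 3983 in homozygous HHR, 455 in heterozygous HHR and 829.6 in SDR involution, against 808 in SDR lactation, 4.93-fold above SDR lactation. Rnf39, a RING finger protein encoded in the class I region, had 2303 in homozygous HHR, 300 in heterozygous HHR and 475 in SDR involution, against 529 in SDR lactation. For these 3 genes the heterozygous HHR array was the lowest of the 4. Cndp1, a carnosine dipeptidase, had 804 in homozygous HHR, 183 in heterozygous HHR and 107 in SDR involution, against 179.7 in SDR lactation. Sftpd, surfactant protein D, a lectin of innate defence, had 2799 in homozygous HHR, 1148 in heterozygous HHR and 1343 in SDR involution, against 531 in SDR lactation. Prox1, a homeobox regulator best known in lymphatic endothelium, had 1324 in homozygous HHR, 339.9 in heterozygous HHR and 646 in SDR involution, against 294 in SDR lactation. The last 3 were 4.47-fold, 5.27-fold and 4.51-fold higher in homozygous HHR than in SDR lactation. The matrix genes Fbn2, a microfibril protein, and Bmper, a secreted BMP binding protein, were dim in SDR and 4.89-fold and 4.84-fold higher in homozygous HHR.

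**Figure D2:**
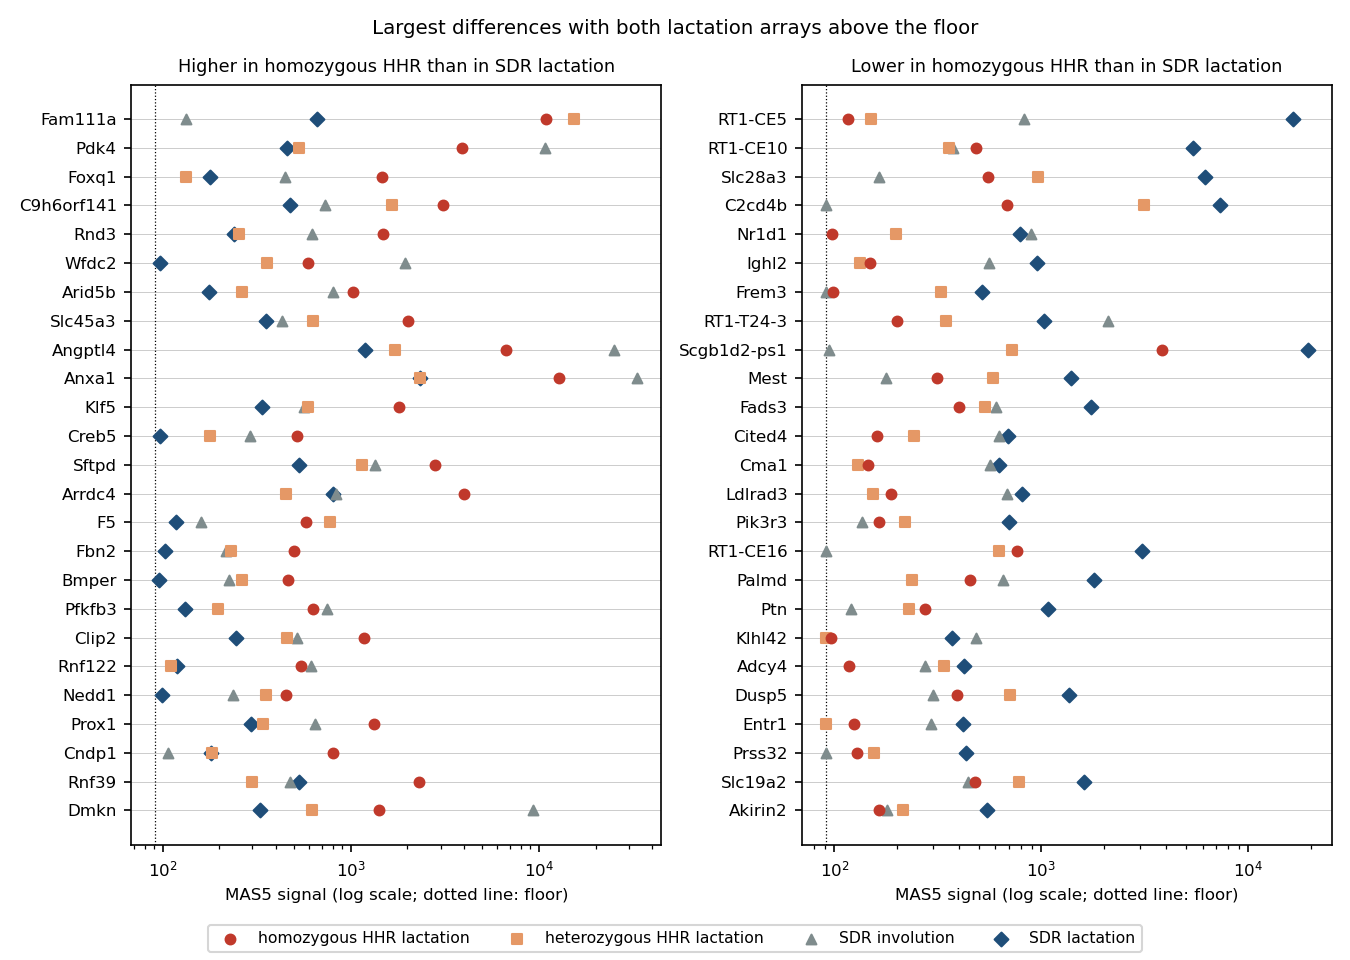
MAS5 signal (log scale) of the 25 genes with the largest difference in each direction, among genes outside the lactation and cell type lists with both lactation arrays above the floor (dotted line, 91.5) and no probe set going the other way. Each point is 1 array; in the left panel homozygous HHR is from 4.29-fold (Dmkn) to 16.6-fold (Fam111a) above SDR lactation, and in the right panel from 3.30-fold (Akirin2) to 141-fold (RT1-CE5) below it.

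Several genes were above the floor in homozygous HHR and at it in SDR lactation, so their folds are lower bounds. Card14, a scaffold of NF-kappa B signalling in keratinocytes, had a signal of 1101 in homozygous HHR, 164 in heterozygous HHR and 12657 in SDR involution, against the floor in SDR lactation, at least 12.0-fold higher in homozygous HHR than in SDR lactation. Its SDR involution signal was the highest of the 4. Ephx2, the soluble epoxide hydrolase that degrades fatty acid epoxides, had 933 in homozygous HHR, the floor in heterozygous HHR and 258 in SDR involution, against the floor in SDR lactation, and the difference was at least 10.2-fold. Zmynd15, a zinc finger repressor known from male germ cells, had 657 in homozygous HHR, 157 in heterozygous HHR and 239 in SDR involution, against the floor in SDR lactation. Anxa8, another annexin, had 505 in homozygous HHR, 156 in heterozygous HHR and 797 in SDR involution, against the floor in SDR lactation. Zfp703, a zinc finger protein, had 427 in homozygous HHR, 188 in heterozygous HHR and 407 in SDR involution, against the floor in SDR lactation. The last 3 were at least 7.18-fold, 5.52-fold and 4.67-fold higher, and each was also above the floor in heterozygous HHR and in SDR involution. Sptbn4, a spectrin, and Carmil2, an actin capping regulator, were at least 3.44-fold and 3.15-fold higher.

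Among genes lower in homozygous HHR, Slc28a3, a sodium-coupled nucleoside transporter, had a signal of 555 in homozygous HHR, 961 in heterozygous HHR and 165 in SDR involution, against 6177 in SDR lactation. C2cd4b, a nuclear protein with a C2 domain, had 681 in homozygous HHR, 3131 in heterozygous HHR and the floor in SDR involution, against 7289 in SDR lactation. They were 11.1-fold and 10.7-fold lower in homozygous HHR than in SDR lactation. In both, heterozygous HHR lay between the lactation pair and SDR involution was the lowest array. Scgb1d2-ps1, annotated as a secretoglobin pseudogene, was bright, with 3817 in homozygous HHR, 722 in heterozygous HHR and 94.4 in SDR involution, against 19375 in SDR lactation, and was 5.08-fold lower. Mest, an imprinted gene expressed from the paternal copy, had 312 in homozygous HHR, 583 in heterozygous HHR and 177 in SDR involution, against 1385 in SDR lactation (4.44-fold lower). Ptn, the growth factor pleiotrophin, had 276 in homozygous HHR, 230.1 in heterozygous HHR and 119.8 in SDR involution, against 1072 in SDR lactation (3.89-fold lower). Apln, the peptide ligand of the apelin receptor, had 2608 in homozygous HHR, 5632 in heterozygous HHR and 229 in SDR involution, against 7683 in SDR lactation (2.95-fold lower), and its other probe set went the same way. SDR involution was again the lowest array for these 4 genes.

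Some decreases appeared in both HHR arrays and not in SDR involution. Nr1d1, the haem-binding repressor Rev-erb alpha of the circadian clock, had 97.5 in homozygous HHR, 199.5 in heterozygous HHR and 893 in SDR involution, against 788 in SDR lactation, an 8.09-fold decrease. Cited4, a coactivator partner of CBP, had 161 in homozygous HHR, 243 in heterozygous HHR and 624 in SDR involution, against 691 in SDR lactation. Ldlrad3, a receptor with LDL receptor repeats, had 189 in homozygous HHR, 153 in heterozygous HHR and 679 in SDR involution, against 807 in SDR lactation. Cma1, the chymase of mast cells, had 145 in homozygous HHR, 130.1 in heterozygous HHR and 565 in SDR involution, against 623 in SDR lactation. These 4 genes were low in both HHR arrays and high in both SDR arrays. Klhl42, an adaptor of Cul3 ubiquitin ligases, had 95.9 in homozygous HHR, the floor in heterozygous HHR and 482 in SDR involution, against 372 in SDR lactation, and Entr1, an endosomal sorting protein, had 124 in homozygous HHR, the floor in heterozygous HHR and 293 in SDR involution, against 418 in SDR lactation, and both were likewise low in HHR and higher in SDR. For other genes the SDR lactation array stood alone above the rest. Slc19a2, the thiamine transporter, had 481 in homozygous HHR, 781 in heterozygous HHR and 439.7 in SDR involution, against 1606 in SDR lactation. Fads3, of the fatty acid desaturase family, had 401 in homozygous HHR, 532 in heterozygous HHR and 601 in SDR involution, against 1742 in SDR lactation. Dusp5, a nuclear phosphatase of ERK, had 389 in homozygous HHR, 708 in heterozygous HHR and 301 in SDR involution, against 1359 in SDR lactation. The differences between homozygous HHR and SDR lactation were 3.34-fold, 4.34-fold and 3.49-fold.

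At the floor in homozygous HHR and above it in SDR lactation were dim genes. Cwc25, a splicing factor, was at the floor in both HHR arrays and had 433 in SDR lactation and 344 in SDR involution. Ppic, cyclophilin C, was likewise at the floor in both HHR arrays and had 306 in SDR lactation. Agps, which makes the ether bond of ether lipids in peroxisomes, was at least 3.93-fold lower than its SDR lactation signal of 359.8. Gtse1 and Pimreg, genes of dividing cells, were at the floor in homozygous HHR against 317 and 322 in SDR lactation, whereas heterozygous HHR had 776 and 159.7. Uba7, the activating enzyme of the ubiquitin-like protein Isg15, was at the floor against 263 in SDR lactation, and both of its further probe sets were lower too.

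The RT1 genes, the rat major histocompatibility complex on chromosome 20, included the largest decreases. They were grouped after their values were seen. Of 18 measured RT1 genes 3 were at least 2-fold higher in homozygous HHR and 9 lower, and their median was -0.91 on the log2 scale, beside backgrounds of 3.77% higher and 2.72% lower over all measured genes. RT1-CE5, a class I gene, had 117 in homozygous HHR, 151 in heterozygous HHR and 825 in SDR involution, against 16488 in SDR lactation, a difference of 141-fold. RT1-CE10 had 481 in homozygous HHR, 358 in heterozygous HHR and 374 in SDR involution, against 5399 in SDR lactation (11.2-fold lower) and RT1-CE16 had 759 in homozygous HHR, 627 in heterozygous HHR and the floor in SDR involution, against 3067 in SDR lactation (4.04-fold lower). The SDR lactation array was the brightest for these genes, and the SDR involution array was far below it, with RT1-CE5 and RT1-CE10 nearer to the HHR arrays than to SDR lactation. The labels give both SDR arrays the same strain and do not say whether the animals came from 1 colony. The differences of RT1-CE5, RT1-CE10 and RT1-CE16 therefore set 1 SDR array against the other 3 arrays. They cannot be told apart from a difference between SDR animals. Some other lower RT1 genes had another order. RT1-T24-3 had 201 in homozygous HHR, 347 in heterozygous HHR and 2100 in SDR involution, against 1030 in SDR lactation. RT1-Da had 1912, 2492, 4241 and 5511 in the same arrays. RT1-N3 and 1 probe set of RT1-Db1 were likewise lower in both HHR arrays than in both SDR arrays. Going the other way, RT1-T24-4 had 2843 in homozygous HHR, 2376 in heterozygous HHR and 4519 in SDR involution, against 857 in SDR lactation and was 3.32-fold higher in homozygous HHR than in SDR lactation. RT1-A was at the floor in SDR lactation and had 323 in homozygous HHR and 2205 in SDR involution.

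Probe sets of the same RT1 gene disagreed. For the class II gene RT1-Ba, 1 probe set was at the floor in homozygous HHR, in heterozygous HHR and in SDR involution, against 9050.5 in SDR lactation. Another was at the floor in both HHR arrays and 311 in SDR involution, against 8258 in SDR lactation. A further one had 765 in homozygous HHR, 638 in heterozygous HHR and 3398 in SDR involution, against the floor in SDR lactation, and the last had 826 in homozygous HHR, 802 in heterozygous HHR and 234 in SDR involution, against 488 in SDR lactation. SDR lactation alone was bright for the first 2 of these and alone at the floor for the next. RT1-Bb was 777 in homozygous HHR against 2731 in SDR lactation by 1 probe set and 332 in homozygous HHR against the floor in SDR lactation by the other. RT1-Db1 was 418 in homozygous HHR against 1197 in SDR lactation by 1 probe set, and 430 in homozygous HHR against 189 in SDR lactation by the other. RT1 genes are near-identical and differ in sequence between rat haplotypes, and which member a probe set reads is uncertain. Neighbouring measured genes that all passed 2-fold in 1 direction were found in 3 runs of 3 genes or more. On chromosome 20 these were RT1-CE16, RT1-CE12, RT1-CE10 and RT1-CE5, and RT1-Bb with Tap2 and Psmb8, all lower in homozygous HHR. On chromosome 7 the run was Krt7, Krt86 and Krt5, all higher. Counted by chromosome, 6.62% of 317 measured genes on chromosome 20 were lower and 5.05% higher, beside 2.72% and 3.77% over all measured genes. The lower share takes in the RT1 genes, Tap2 and Psmb8 of the runs on that chromosome, so it is no separate result. Shares without them were not computed.

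Genes with several probe sets give repeat readings within the array. Named genes past 2-fold had to have no further probe set above the floor going the other way. Only genes named after their values were seen were exempt. The shared direction of further probe sets, here and for other named genes, was therefore set by that choice, and only sizes are described. Of the 152 genes past 2-fold with such a probe set, all went the same way for 106. Sox4, a transcription factor of progenitor cells and epithelial plasticity, had a signal of 13031 in homozygous HHR, 3139.6 in heterozygous HHR and 13198 in SDR involution, against 3062 in SDR lactation and was 4.26-fold higher in homozygous HHR than in SDR lactation. All 5 of its further probe sets above the floor were higher in homozygous HHR, by 1.02 to 3.70 on the log2 scale. On the probe set given, homozygous HHR and SDR involution were close to each other, and so were heterozygous HHR and SDR lactation. Other Sox4 probe sets did not all keep this, and 1 of them had 892 in homozygous HHR, 166 in heterozygous HHR and 1537 in SDR involution, against 439.6 in SDR lactation. Klf5, a Krüppel-like factor of proliferating epithelia, had 1805 in homozygous HHR, 590.1 in heterozygous HHR and 563 in SDR involution, against 335 in SDR lactation (5.38-fold higher), and its 3 further probe sets were higher by 0.997 to 2.44. Creb5, a leucine zipper factor that binds cyclic AMP response elements, had 518 in homozygous HHR, 178 in heterozygous HHR and 293 in SDR involution, against 96.8 in SDR lactation (5.35-fold higher), and its 4 further probe sets were higher by 0.84 to 2.15. Rnd3, a regulator of the actin cytoskeleton, had 1479 in homozygous HHR, 256 in heterozygous HHR and 621 in SDR involution, against 239 in SDR lactation (6.20-fold higher), and both further probe sets were higher, by 1.72 and 3.13. In Klf5, Creb5 and Rnd3 the homozygous HHR array was the highest of the 4. Klhl24, an adaptor of Cul3 ligases that acts on keratin turnover in skin, had 5077 in homozygous HHR, 1393 in heterozygous HHR and 5049 in SDR involution, against 1302 in SDR lactation (3.90-fold higher), with both further probe sets higher.

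**Figure D3:**
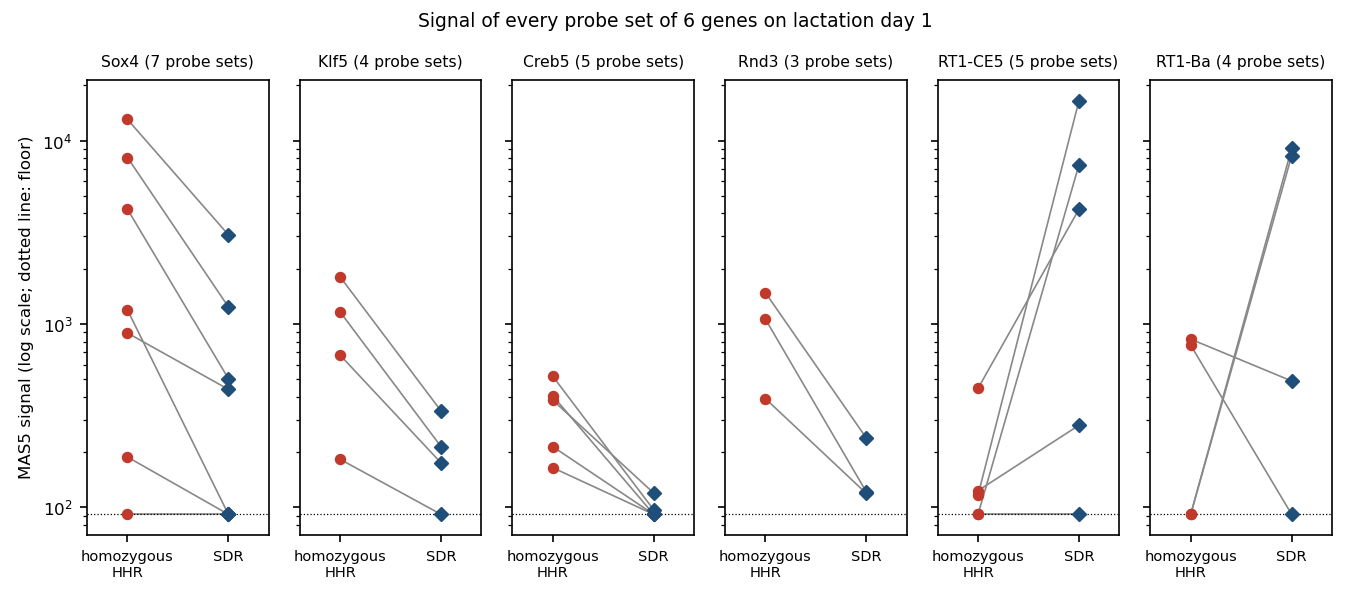
MAS5 signal (log scale) of every probe set of 6 genes in homozygous HHR (left of each panel) and SDR (right) on lactation day 1, with a line joining the 2 readings of a probe set and the floor dotted. Sox4, Klf5, Creb5 and Rnd3 lines all run down to SDR except 1 Sox4 probe set at the floor in both arrays, RT1-CE5 lines run up apart from 1 at the floor in both, and RT1-Ba lines cross.

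The genes outside the usual lists were also read by 60 groups of related function, which held 2504 measured genes. Of these 4.27% were at least 2-fold higher and 3.00% lower in homozygous HHR, close to the shares of all genes outside the lists. Most groups had few members past 2-fold, and those described below are set beside the 3.55% and 2.53% given above.

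Transcription factors of the Sox and Klf families counted 5 higher and 2 lower among 13 measured members, and their median was 0.30 on the log2 scale. Besides Sox4 and Klf5, Klf11, a repressor linked to TGF-beta signalling, was 3.36-fold higher at 1808 in homozygous HHR against 538 in SDR. Klf13 was 2.06-fold higher at 1148 in homozygous HHR against 558 in SDR. Klf15, a metabolic factor induced by glucocorticoids in several tissues, was 2.12-fold lower at 774 in homozygous HHR against 1641 in SDR. Nuclear receptors had 0 higher and 4 lower of 26 measured, Nr1d1 among them, with a median of 0.02. With the mean of probe sets 2 were lower, without Nr1h2 and Nr5a2, and the median was -0.13. Vdr, the vitamin D receptor, had 199.8 in homozygous HHR against 459 in SDR (2.30-fold lower), and Nr1h2, the oxysterol receptor LXR beta, had 738 in homozygous HHR against 1578 in SDR (2.14-fold lower). Nr5a2 was at the floor in homozygous HHR against 199 in SDR. Of 19 measured clock genes 1 was higher and 2 were lower. Per1, a clock repressor that is also induced by glucocorticoids, had 445 in homozygous HHR against 215 in SDR (2.07-fold higher), and Dbp, an output factor of the clock, had 179 in homozygous HHR against 363 in SDR (2.03-fold lower). The labels do not give the hour at which the glands were taken. Zinc finger proteins, the largest group, had 10 higher and 3 lower of 254 measured, and 4 and 1 with the pseudocount. The group of homeobox factors, which did not take in Prox1 described above, had 0 higher and 1 lower of 43. The lower 1 was Hoxd10, at 294 in homozygous HHR against 669 in SDR. With the floor at the 25th percentile 6 were higher and 1 lower.

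Glucocorticoid-induced genes are genes that the stress hormone receptor activates in many tissues. Of 15 measured members outside the usual lists 5 were higher and 1 was lower, and the median stood at 0.30. Pdk4, Angptl4, Anxa1 and Per1, described above, were 4 of the higher ones and Klf15 was the lower one. The first 3 of these were brightest in SDR involution, whereas Per1 was 103 there, below its SDR lactation signal of 215.

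Among genes of cell shape and adhesion the direction differed between groups. Actin-binding proteins, myosins and spectrins had 8 higher and 1 lower of 80 measured, with a median of 0.24. Palld, palladin of actin bundles, had 3221 in homozygous HHR against 1155 in SDR (2.79-fold higher). Tes, testin of focal adhesions, had 4042 in homozygous HHR against 1651 in SDR (2.45-fold), with both further probe sets higher. Zyx, zyxin, had 2499.8 in homozygous HHR against 1107 in SDR (2.26-fold), and Actn1, alpha-actinin of stress fibres, had 4412 in homozygous HHR against 2135 in SDR (2.07-fold). These 4 proteins all sit at actin bundles or adhesions, and the myoepithelial markers, many of which are contractile proteins, had a median of 0.61 in the same pair, a shift whose part in this count was not tested. Tubulins and microtubule binders had 4 higher and 0 lower of 39 with a median of 0.30, led by Clip2, a linker of microtubule ends, at 1172 in homozygous HHR against 245 in SDR (4.78-fold). With the pseudocount in place of the floor 1 was higher, and with the mean of probe sets 2 were. Kinesins and dyneins had 4 higher and 0 lower of 39 with a median of 0.22, and Kifc3, a minus-end motor of epithelial junctions, had 336 in homozygous HHR against 126 in SDR. With the pseudocount 0 of these were higher, and with the floor at the 55th percentile 1 was. The group of septins, tetraspanins and lectins, which did not take in Sftpd, had 0 higher and 3 lower of 54 with a median of -0.17. Septin7, a filament protein of the cell cortex, was among the lower ones, at 942 in homozygous HHR against 1976 in SDR (2.10-fold lower). Kallikreins and transmembrane serine proteases had 0 higher and 1 lower of 11. Cadherins and protocadherins had 2 higher and 1 lower of 20. Dsc2, a desmosomal cadherin, had 425 in homozygous HHR, 157 in heterozygous HHR and 1859 in SDR involution, against 143 in SDR lactation, and SDR involution was the highest of the 4 arrays. The mucin Muc4, a membrane glycoprotein of secretory epithelia, had 2179 in homozygous HHR against 601 in SDR (3.63-fold higher).

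**Figure D4:**
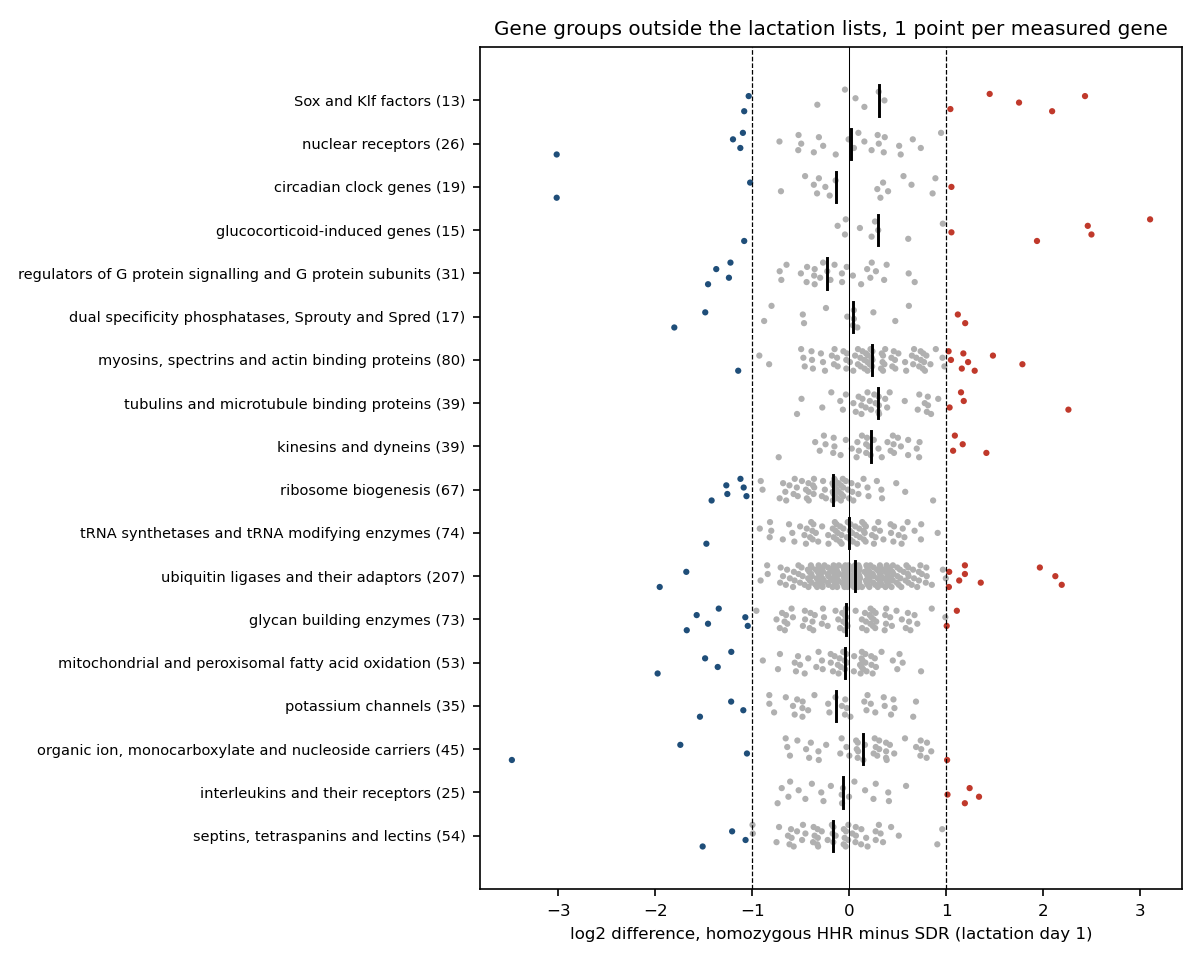
Difference on the log2 scale, homozygous HHR minus SDR on lactation day 1, of each measured gene outside the lactation and cell type lists in 18 of the 60 groups (number of genes in brackets). Points past the dashed 2-fold lines are red (higher) or blue (lower) and black bars are group medians, which run from -0.23 for regulators of G protein signalling to 0.30 for the Sox and Klf factors.

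Ribosome biogenesis genes, which process and assemble ribosomal RNA in the nucleolus, had 0 higher and 6 lower of 67 measured, with a median of -0.17. With the pseudocount 3 were lower, without Tsr3 and Wdr12 among others. Dkc1, the pseudouridine synthase dyskerin, had 493 in homozygous HHR, 1249 in heterozygous HHR and 849 in SDR involution, against 1186 in SDR lactation (2.41-fold lower). Rrs1, which acts in assembly of the large subunit, had 589 in homozygous HHR, 1232 in heterozygous HHR and 795 in SDR involution, against 1282 in SDR lactation (2.18-fold lower), and Wdr12, of the same pathway, had 473 in homozygous HHR, 1053 in heterozygous HHR and 473 in SDR involution, against 1005 in SDR lactation (2.13-fold lower). Tsr3, which modifies the RNA of the small subunit, had 264 in homozygous HHR, 364 in heterozygous HHR and 500.4 in SDR involution, against 550.3 in SDR lactation (2.08-fold lower). Homozygous HHR was the lowest array for all 4 genes, by a margin of under 1 signal unit for Wdr12, and heterozygous HHR was near SDR lactation for Dkc1, Rrs1 and Wdr12. The other members past 2-fold were Polr1b, a subunit of RNA polymerase I, and Rrp8, a ribosomal RNA methyltransferase, both named after their values were seen. Polr1b had 192 in homozygous HHR, 321.5 in heterozygous HHR and 398 in SDR involution, against 459.6 in SDR lactation. Rrp8 had 202 in homozygous HHR, 529 in heterozygous HHR and 197 in SDR involution, against 541 in SDR lactation, so SDR involution was its lowest array. Of 74 measured tRNA synthetases and tRNA modifying enzymes 0 were higher and 1 was lower, Trmt61a, a tRNA methyltransferase, at 299.9 in homozygous HHR against 832 in SDR (2.78-fold). RNA helicases and exosome genes had 0 higher and 1 lower of 69, Dhx37, a helicase of the small subunit, at 153 in homozygous HHR against 358 in SDR.

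The E-box CACGTG, which reads the same on both strands and is bound by Myc and by the clock and glucose-sensing factors, was searched in RefSeq promoters of build GRCr8, each from 250 bases before to 50 bases after the gene start. It was found in 6.65% of all 27457 promoters and in 9.72% of the 8651 promoters of measured genes outside the lists. It was in 7.22% of the 291 promoters of higher genes and 9.39% of the 213 promoters of lower genes. Of 62 promoters of measured ribosome biogenesis genes 38.7% held it, whether or not the gene passed 2-fold. It was in 3 of the 5 promoters found for the 6 lower members. Only those 3 are printed below, with the match in capitals, and the promoters without a match are not printed. They lie at chrX:157751401-157751700 on the plus strand for Dkc1, chr1:169500424-169500723 on the minus strand for Rrp8 and chr10:14761416-14761715 on the plus strand for Tsr3.
Dkc1: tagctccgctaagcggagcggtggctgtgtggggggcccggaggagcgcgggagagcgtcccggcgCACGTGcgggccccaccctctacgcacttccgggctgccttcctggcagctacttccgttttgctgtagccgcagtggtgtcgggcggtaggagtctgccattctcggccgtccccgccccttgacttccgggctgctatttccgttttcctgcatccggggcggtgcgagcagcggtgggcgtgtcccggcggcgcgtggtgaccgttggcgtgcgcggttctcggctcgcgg
Rrp8: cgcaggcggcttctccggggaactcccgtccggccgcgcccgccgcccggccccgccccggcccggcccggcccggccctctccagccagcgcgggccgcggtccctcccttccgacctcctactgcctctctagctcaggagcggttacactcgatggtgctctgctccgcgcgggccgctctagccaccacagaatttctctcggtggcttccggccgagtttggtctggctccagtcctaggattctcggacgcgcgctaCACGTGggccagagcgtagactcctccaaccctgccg
Tsr3: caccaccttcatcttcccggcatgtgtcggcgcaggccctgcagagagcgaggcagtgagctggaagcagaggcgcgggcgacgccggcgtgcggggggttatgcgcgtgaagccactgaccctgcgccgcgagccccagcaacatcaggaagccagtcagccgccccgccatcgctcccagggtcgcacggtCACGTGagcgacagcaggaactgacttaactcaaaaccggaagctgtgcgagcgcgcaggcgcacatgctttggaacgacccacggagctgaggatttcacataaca
Arrdc4, which glucose-sensing factors of the Mondo family are known to activate, is shown beside them as a higher gene whose promoter also holds a match, at chr1:131793376-131793675 on the minus strand.
Arrdc4: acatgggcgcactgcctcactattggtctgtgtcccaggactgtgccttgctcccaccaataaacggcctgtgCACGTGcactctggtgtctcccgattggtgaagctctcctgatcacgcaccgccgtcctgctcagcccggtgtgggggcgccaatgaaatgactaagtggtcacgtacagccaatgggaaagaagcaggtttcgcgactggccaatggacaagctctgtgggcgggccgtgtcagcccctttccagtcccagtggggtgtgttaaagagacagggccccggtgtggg
A match describes these letters only and does not show that a factor binds there.

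Within signalling groups the direction was mixed. Regulators of G protein signalling and G protein subunits had 0 higher and 4 lower of 31, with a median of -0.23, and 2 lower with the floor at the 55th percentile. Rgs5, a regulator best known in pericytes, had 694 in homozygous HHR against 1623 in SDR (2.34-fold lower), and Gnaq and Rgs19 were at the floor in homozygous HHR against 237 and 216 in SDR. Endothelial markers had a median of -0.29 in the same pair, and their part in these counts was not tested. Adcy4, an adenylyl cyclase, had 118 in homozygous HHR against 423 in SDR (3.60-fold lower), while Pde4b, a phosphodiesterase that breaks down cyclic AMP, had 1955 in homozygous HHR against 648 in SDR (3.02-fold higher). Of the feedback inhibitors of ERK, Dusp7 had 809 in homozygous HHR against 2263 in SDR (2.80-fold lower) and Spry2 had 1486 in homozygous HHR against 649 in SDR (2.29-fold higher), so that the group of 17 counted 2 in each direction. Tnfrsf12a, the receptor of the cytokine Tweak, had 1381 in homozygous HHR, 407 in heterozygous HHR and 893 in SDR involution, against 322 in SDR lactation (4.29-fold higher), the only 1 of 12 measured TNF family members past 2-fold. Interleukins and their receptors had 4 higher and 0 lower of 25 with a median of -0.07, and 2 higher with the pseudocount or the floor at the 55th percentile. Among them were Il17re, a receptor chain for IL-17 cytokines, at 945 in homozygous HHR against 400.1 in SDR, and Il4r, the IL-4 receptor, at 218 in homozygous HHR against 95.7 in SDR. Nfkbiz, an atypical I kappa B protein, had 462 in homozygous HHR against 138 in SDR (3.33-fold higher) as the only 1 of 21 NF-kappa B pathway genes past 2-fold, and with the mean of its probe sets it was short of it, which left 0. Tacr1, the substance P receptor, had 1114 in homozygous HHR against 441 in SDR, and G protein-coupled receptors had 4 higher and 0 lower of 78. That count was 1 higher and 0 lower with the pseudocount, 1 and 1 with the mean of probe sets, and 10 and 7 with the floor at the 25th percentile. Notch pathway genes had none past 2-fold in either direction and a median of -0.25.

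Ubiquitin ligases and their adaptors had 9 higher and 2 lower of 207 measured, and 6 and 3 with the pseudocount. Besides Klhl24, Rnf39 and Klhl42, Rnf122, a membrane RING ligase, had 544 in homozygous HHR against 119 in SDR (4.56-fold higher). Nedd4l, which removes the epithelial sodium channel from the membrane, had 1030 in homozygous HHR against 469.9 in SDR (2.19-fold higher), and Rnf144b had 3440.3 in homozygous HHR against 1507 in SDR (2.28-fold higher). Splicing and RNA binding proteins had 3 in each direction of 117.

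In metabolism, Pfkfb3 makes the sugar phosphate that activates phosphofructokinase in glycolysis. It had 628 in homozygous HHR, 197 in heterozygous HHR and 748 in SDR involution, against 131 in SDR lactation (4.78-fold higher). It was the only 1 past 2-fold of 27 measured genes in the hypoxia response group, which did not take in Angptl4 or Apln. With the mean of its probe sets Pfkfb3 was short of 2-fold. Mitochondrial and peroxisomal fatty acid oxidation genes, a group that here takes in the peroxisomal ether lipid enzymes, had 0 higher and 4 lower of 53, and 2 lower with the floor at the 55th percentile. Far1, which makes the fatty alcohols of ether lipids, had 398 in homozygous HHR against 924 in SDR (2.32-fold lower), and Agps of the same pathway was at the floor in homozygous HHR. Acadsb, an acyl-CoA dehydrogenase, had 116 in homozygous HHR against 324 in SDR and Bdh1, of ketone body metabolism, had 239 in homozygous HHR against 611 in SDR. Glycan building enzymes had 2 higher and 6 lower of 73, and 0 and 4 with the mean of probe sets. Galnt7, which extends mucin-type sugars, had 433 in homozygous HHR against 1100 in SDR (2.54-fold lower), Chst1, a keratan sulphate sulphotransferase, had 2831 in homozygous HHR against 5951 in SDR (2.10-fold lower) and Ndst1, of heparan sulphate synthesis, had 264 in homozygous HHR against 546 in SDR (2.07-fold lower). Carbonic anhydrases, which interconvert carbon dioxide and bicarbonate, had 1 higher and 2 lower of 8. The mitochondrial Car5b had 1577 in homozygous HHR, 1528 in heterozygous HHR and 938 in SDR involution, against 4570.2 in SDR lactation (2.90-fold lower), Car4 had 490.4 in homozygous HHR, 852 in heterozygous HHR and the floor in SDR involution, against 1206 in SDR lactation (2.46-fold lower) and Car8, which lacks the enzyme activity, had 3254 in homozygous HHR, 2482 in heterozygous HHR and 296 in SDR involution, against 1569 in SDR lactation (2.07-fold higher). Sphingolipid enzymes, one-carbon enzymes and conjugating transferases had none past 2-fold.

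Among channels and transporters, potassium channels had 0 higher and 3 lower of 35. With the pseudocount 1 was higher and 1 lower, and with the floor at the 25th percentile 4 and 8. Kcnk5, a background potassium channel of epithelia, had 767 in homozygous HHR, 1685 in heterozygous HHR and 366 in SDR involution, against 2228 in SDR lactation (2.91-fold lower), and Kcne3 and Kcnip4 were at the floor in homozygous HHR against 195 and 213 in SDR. Organic ion, monocarboxylate and nucleoside carriers had 1 higher and 3 lower of 45. Besides Slc28a3 and Slc19a2, the sodium-glucose cotransporter Slc5a1 had 146 in homozygous HHR against 304 in SDR (2.08-fold lower). Slc5a3, the myo-inositol transporter that guards against hypertonic stress, had 6687 in homozygous HHR, 1960 in heterozygous HHR and 2525 in SDR involution, against 3326 in SDR lactation (2.01-fold higher), with homozygous HHR the highest of the 4 arrays. ATPase pumps outside the lactation lists had 0 past 2-fold of those measured.

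Some groups were included for comparison. None of 19 olfactory and vomeronasal receptors on the array was measured in the pair. Of 20 measured testis and sperm genes 0 were higher and 0 lower, and the median stood at -0.15. DNA repair genes had 3 higher and 1 lower of 75, and 1 and 0 with the pseudocount, among them Mdc1, a mediator of the DNA damage checkpoint, at 774 in homozygous HHR, 1678 in heterozygous HHR and 284 in SDR involution, against 290.3 in SDR lactation (2.66-fold higher). Heterozygous HHR was the highest array for Mdc1.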

How the data were processed

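Mammary gland RNA of each group was read on 1 Affymetrix array, 4 in all, as biotinylated cRNA per the labels' protocols. The authors deposited linear MAS5 signals, an intensity per probe set. Per the submitters' processing notes the tool was MAS5, and its version, parameters and detection calls are not given in the sources used. Trimmed by 2% at each end, the mean signal was 499.98 in each array, so the 4 arrays carry the same scaling.

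Of 31099 probe sets 57 were controls, and the platform annotation gave 1 gene symbol for 20826, several for 436 and none for 9780. Only probe sets with 1 symbol were named. Of these 20758 were found in the RefSeq gene table of GRCr8, and 0 symbols changed. Signals were floored at the pooled 40th percentile (91.5) and put on the log2 scale. A gene was read from its probe set with the highest mean over the 4 arrays, which gave 14217 genes. Differences are homozygous HHR minus SDR. Groups were taken from the labels, and 0 columns were left unmapped. The number of arrays limits the precision.

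The members, the 29 usual lists, the 60 groups and the alternatives were chosen with earlier results of these data known. Named genes were the 25 largest differences in each direction with both arrays above the floor and all probe sets in the same direction, the 10 brightest in each direction with 1 array at the floor, and from each group up to 4 members past 2-fold and 2 short of it by brightness. A selection is printed, and 1 of the groups is not reported here. The RT1 and mast cell sets and 2 ribosome biogenesis genes fall outside this rule. Alternatives were median centring, quantile normalization, the 25th or 55th percentile as the floor, a pseudocount equal to the floor, the probe sets of a gene averaged, probe sets without the shared-probe suffix and a 3-fold threshold. The counting steps were tested on simulated data with little noise, in which folds were planted only in genes well above the floor. Calls of genes near the floor were not tested. Python 3.11.15, pandas 2.3.3, numpy 2.4.6 and matplotlib 3.10.9 were used.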

Additional observations from a re-analysis of the deposited data

Results flagged for a closer look

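Probe sets that could not be tied to 1 gene also differed between homozygous HHR and SDR, and no comparison above uses them. Of 4590 measured probe sets with no gene symbol, 297 were at least 2-fold higher in homozygous HHR (6.47%) and 137 at least 2-fold lower (2.98%). Of 349 with several symbols, 10 were higher (2.87%) and 24 lower (6.88%). These count probe sets and not genes, so their shares are not on the same footing as those of the named genes. With 1 array a group, no sample could be compared with others of its group.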

How the results depend on the processing

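No paired analysis was possible because each group has 1 array. Among the 10350 genes outside the usual lists, with 367 higher and 262 lower, the counts were 374 higher and 268 lower after median centring and 350 and 265 after quantile normalization. Without the shared-probe suffix they were 370 and 263. A floor at the 25th percentile gave 602 and 468, and one at the 55th percentile gave 266 and 164. The floor as a pseudocount gave 229 and 169, and a 3-fold threshold gave 81 and 42. The mean of all probe sets gave 261 and 269, which turned which direction was larger. Over all measured genes, with 410 higher and 296 lower, the 25th percentile gave 652 and 507, the 55th 297 and 191, the pseudocount 261 and 197, the mean of probe sets 301 and 306, and 3-fold 100 and 51. Some of these shifts follow by construction. A higher threshold admits fewer genes, and a pseudocount shrinks the difference of every probe set. Raising the floor shrinks differences of dim genes, and lowering it widens them and lets more genes count as measured. The cause of the other shifts was not tested. Of 183 named genes past 2-fold, 94 stayed past it under all 7 alternatives other than the 3-fold threshold. That 0 reversed was largely set in advance and is no sign of stability. Another floor or a pseudocount keeps the order of the signals of a probe set. Averaging or switching probe sets meets the rule that no probe set of a named gene went the other way. B4galt5, Il36rn, Pla2g15 and Zfp185 lost it after quantile normalization, with differences close to 2-fold. The floor at the 55th percentile took 52 of the 183 below 2-fold, the pseudocount 53, the mean of probe sets 27 and the suffix rule 1 (Palmd). The mean of probe sets took Pfkfb3, Klf15, Nfkbiz, Nr1h2, Tes, Tacr1, Slc5a3, Car4 and Klhl42 below it, among others. Differences of dim genes are limited by the floor.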

Other observations

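Mast cell genes were looked at after the value of Cma1 was seen. Of 8 measured members 0 were higher and 3 lower in homozygous HHR, with a median log2 difference of -0.68. Over all measured genes 3.77% were higher and 2.72% lower, and Cma1, which prompted the set, is 1 of the 3. Cpa3, the mast cell carboxypeptidase, had a signal of 177 in homozygous HHR, 177 in heterozygous HHR and 543 in SDR involution, against 566 in SDR lactation. Mcpt1l1, a mast cell protease, had 357 in homozygous HHR, 534 in heterozygous HHR and 1067 in SDR involution, against 1050 in SDR lactation. For Cpa3 and Mcpt1l1 both HHR arrays were low and both SDR arrays high. Some other members did not keep this order. Tpsb2, a tryptase, had 121 in homozygous HHR, 197 in heterozygous HHR and the floor in SDR involution, against 158 in SDR lactation. Tpsab1, another tryptase, had the floor in homozygous HHR, heterozygous HHR and SDR involution, against 179.5 in SDR lactation. Mcpt9, a mast cell protease, kept the order with smaller differences. It had 394 in homozygous HHR, 339 in heterozygous HHR and 453 in SDR involution, against 500.1 in SDR lactation. Gata2, a transcription factor, was lowest in SDR involution, at 141.5. Fcer1a, Ms4a2 and Hdc, which define mast cells, were at the floor in both lactation arrays. Counted by chromosome, the share of higher genes was largest on chromosome 9, with 28 of 421 measured genes (6.65%) beside 3.77% over all measured genes, and 2.14% of its genes were lower.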
